A study of Homo sapiens with 6 samples.

Results

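BORIS-only peaks at gene ends are places where BORIS was precipitated in FT282 cells made to express it, where CTCF was called in neither cell population, and which lie at the edge of a gene. They were taken from the authors' list of 23653 BORIS peaks in BORIS cells. A peak was a member when it shared no base with any of the 44625 CTCF peaks of BORIS cells or the 43162 CTCF peaks of EV cells, and when its centre was at most 1 kb away from the start or the stop of a gene's span in the expression table. The rule found 4598 members, 19.4% of the BORIS list (95% Wilson interval 18.9 to 19.9). The intervals given here cover counting error only. Membership is defined by the peak calls themselves, so the absence of CTCF and the nearness of a gene end are not results.

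BORIS, the protein of the CTCFL gene, is a paralog of CTCF that is normally made in male germ cells and is switched on in some cancers. It has a zinc finger DNA-binding domain very like that of CTCF and can recognise the same sequence, while its flanking domains differ. CTCF marks insulators and the edges of chromatin loops together with cohesin, whereas promoters are the stretches around gene starts from which transcription begins.

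FT282 cells are immortalised secretory cells of human fallopian tube epithelium, and a clonal derivative of the line was used, so every sample stems from 1 clone. The BORIS cells carried BORIS as a stable ectopic transgene, and the EV cells carried the empty vector. BORIS was precipitated with a monoclonal antibody in BORIS cells, and CTCF with its own antibody in BORIS cells and in EV cells. RNA-seq was made of BORIS cells and of EV cells, and an input of EV cells was not used here. Each group held 1 sample, so no difference below has a replicate check, and none was tested. No BORIS precipitation of EV cells was analysed here, so the signal that this antibody gives at these places without BORIS was not measured. Which of 2 RNA kits made each RNA library is not given in the sources used here, so a kit difference and the effect of BORIS cannot be told apart if the kits differed.

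The labels were checked first. CTCFL stood at 53.3 FPKM in BORIS cells and 0.00532 FPKM in EV cells, while CTCF stood at 20.8 FPKM in BORIS cells and 21.1 FPKM in EV cells. FPKM are fragments scaled to transcript length and to the mapped total of the library. Of the 10 markers listed for secretory fallopian epithelium, 6 reached 1 FPKM in BORIS cells and 7 in EV cells, with PAX8 at 72.5 FPKM in BORIS cells and 71.3 FPKM in EV cells. The secretory product OVGP1 was at 0.120 FPKM in BORIS cells and 0.0951 FPKM in EV cells, and the epithelial adhesion genes EPCAM and CDH1 were under 1 FPKM in both. Of 5 ciliated cell markers, 2 reached 1 FPKM in BORIS cells and 3 in EV cells, with a sum of 398 FPKM in BORIS cells and 448 FPKM in EV cells, nearly all of it the tubulin TUBB4B; the ciliated cell factor FOXJ1 was listed at 0 in both. The 7 fibroblast and mesenchyme markers summed to 1599 FPKM in BORIS cells and 1494 FPKM in EV cells, most of it VIM. The 4 endothelial markers summed to 31.5 FPKM in BORIS cells and 36.6 FPKM in EV cells, nearly all of it CDH5. For the 4 leukocyte markers the sums were 2.29 FPKM and 1.52 FPKM. The summed level of the 4 smooth muscle markers was 306 FPKM in BORIS cells and 722 FPKM in EV cells, nearly all of it ACTA2, and the part of this in the results below was not tested.

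To show promoter DNA of genes with a member, the 250 bases before the outermost listed start are printed. They are given for genes at 3 of the 5 strongest members, for genes at the extremes of the expression ratio, and for a promoter with CTCF motif letters. The sequences are RefSeq promoters of GRCh38.p14, written 5′ to 3′ along the gene. Peaks are in hg19 coordinates and were not converted, so a printed window is the gene's promoter and not the peak itself. Capitals mark matches, on either strand, to the letters of a CTCF core (CC, 3 bases of any kind, AG, 2 bases of any kind, GGC) or to the shorter AGGNGGC, where N is any base. RFX7, SF1 and ZNF354B carried strong members. RFX7 has 2 listed starts, and its window lies before the outermost. That start need not be the one from which the distance of its peak was taken.

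RFX7, chr15:56245083-56245332, minus strand: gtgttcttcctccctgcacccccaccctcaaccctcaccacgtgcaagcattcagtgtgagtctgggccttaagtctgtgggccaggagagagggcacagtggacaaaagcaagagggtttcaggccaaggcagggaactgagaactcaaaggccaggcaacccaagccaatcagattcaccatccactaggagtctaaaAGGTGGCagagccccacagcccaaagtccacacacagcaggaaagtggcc
SF1, chr11:64778543-64778792, minus strand: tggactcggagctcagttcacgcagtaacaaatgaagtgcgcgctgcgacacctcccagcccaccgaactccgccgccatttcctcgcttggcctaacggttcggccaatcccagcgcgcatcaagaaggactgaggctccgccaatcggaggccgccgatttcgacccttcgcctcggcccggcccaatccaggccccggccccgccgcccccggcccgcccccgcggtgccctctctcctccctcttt
ZNF354B, chr5:178859703-178859952, plus strand: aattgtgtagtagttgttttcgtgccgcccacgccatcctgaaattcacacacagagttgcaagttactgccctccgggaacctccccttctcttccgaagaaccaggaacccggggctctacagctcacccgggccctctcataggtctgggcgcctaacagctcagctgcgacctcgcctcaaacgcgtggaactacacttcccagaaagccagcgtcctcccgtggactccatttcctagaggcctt

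SLC27A2, IL8 (now CXCL8) and CXCL6 had high ratios of BORIS to EV cells among genes with a member, and TLL1 had the lowest of those with a usable estimate and no small RNA, antisense or read-through name. EP300 is shown for its 2 matches to the longer core.

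SLC27A2, chr15:50181946-50182195, plus strand: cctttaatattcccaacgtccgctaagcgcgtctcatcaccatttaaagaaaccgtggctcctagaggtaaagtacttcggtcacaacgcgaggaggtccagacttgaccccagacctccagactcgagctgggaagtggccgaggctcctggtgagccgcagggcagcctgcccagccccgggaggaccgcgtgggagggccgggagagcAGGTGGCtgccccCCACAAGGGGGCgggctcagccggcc
IL8, chr4:73740319-73740568, plus strand: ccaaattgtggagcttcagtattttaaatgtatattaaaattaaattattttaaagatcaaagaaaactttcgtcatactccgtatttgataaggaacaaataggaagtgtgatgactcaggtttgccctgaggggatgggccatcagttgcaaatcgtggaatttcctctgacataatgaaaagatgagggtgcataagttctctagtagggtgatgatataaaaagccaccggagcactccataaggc
CXCL6, chr4:73836428-73836677, plus strand: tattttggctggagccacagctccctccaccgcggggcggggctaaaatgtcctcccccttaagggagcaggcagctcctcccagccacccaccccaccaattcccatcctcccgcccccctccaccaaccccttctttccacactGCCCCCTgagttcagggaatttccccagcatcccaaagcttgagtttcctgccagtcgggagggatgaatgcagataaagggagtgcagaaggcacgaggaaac
TLL1, chr4:165872987-165873236, plus strand: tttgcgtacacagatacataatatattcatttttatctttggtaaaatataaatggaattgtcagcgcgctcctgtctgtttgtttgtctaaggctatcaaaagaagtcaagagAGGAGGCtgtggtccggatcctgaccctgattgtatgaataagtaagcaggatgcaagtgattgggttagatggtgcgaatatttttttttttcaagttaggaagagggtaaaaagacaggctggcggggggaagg
EP300, chr22:41092342-41092591, plus strand: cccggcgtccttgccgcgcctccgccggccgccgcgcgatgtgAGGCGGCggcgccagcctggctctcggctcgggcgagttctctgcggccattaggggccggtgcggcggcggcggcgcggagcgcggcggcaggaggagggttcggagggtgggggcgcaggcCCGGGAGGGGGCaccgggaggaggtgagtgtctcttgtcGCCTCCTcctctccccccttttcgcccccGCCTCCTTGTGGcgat

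The letters differ from window to window. SF1, ZNF354B and IL8 hold no match to either CTCF pattern, RFX7, CXCL6 and TLL1 hold 1 match to the short one, and SLC27A2 and EP300 hold the longer core. GC content was 37.6% in the IL8 window and 76.8% in the EP300 window. A match is a description of the letters and not a binding site, and no match says only that these letters are not in these 250 bases.

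Promoters with a BORIS-only peak alone held CTCF letters less often than promoters with a CTCF-shared BORIS peak. Both kinds of peak were set by CTCF calls, so this difference is not independent of the rule and is a description only. CTCF-shared BORIS peaks are BORIS peaks that overlapped a CTCF peak in BORIS cells and in EV cells. Among genes with at least 1 FPKM in EV cells, the longer CTCF core was found in 10.8% of 2333 promoters with a BORIS-only peak and no CTCF-shared peak at the start (9.61 to 12.1). It was found in 22.3% of 1260 promoters with a CTCF-shared BORIS peak at the start (20.1 to 24.7) and in 9.62% of 2860 promoters of genes with no BORIS peak at an end (8.59 to 10.8). Of 289 promoters with both kinds of peak at the start, 20.1% held it (15.9 to 25.1). Over all 7134 promoters at this level the share was 12.9%. At this level the share with a BORIS-only peak alone lay near that without BORIS, with overlapping intervals. With no minimum level it was 11.2% of 2586 promoters (10.1 to 12.5), against 7.96% of 6938 without a BORIS peak (7.34 to 8.62), and these intervals did not overlap. CTCF-shared peaks stood at 23.1% of 1520 and all promoters at 11.2% of 11941. The window did not cover both kinds of peak alike. With no minimum level, a member overlapped the 250 bases before the gene span at 60.0% of 2907 genes with a member at the start. A CTCF-shared peak did so at 71.3% of 1841 genes with one at the start. Where the peak itself overlapped these bases, at 1 FPKM or more in EV cells, the shares were 10.7% of 1471 promoters for BORIS-only peaks and 26.2% of 964 for CTCF-shared peaks. At 1 FPKM or more in EV cells, the shorter pattern, which also lies inside some longer matches, was in 39.3% of promoters with a BORIS-only peak. It was in 48.7% with a CTCF-shared peak and 38.5% with no BORIS peak, against 41.3% of all at this level.

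Other promoter letters spread less than the longer CTCF core across these groups, among genes with at least 1 FPKM in EV cells. CCAAT spread the most of them. The GC box GGGCGG, bound by SP-family factors, was in 69.4% of promoters with a BORIS-only peak, 68.7% with a CTCF-shared peak and 68.2% with no BORIS peak, against 68.9% of all at this level. The ETS pattern CCGGAAG was in 18.2%, 16.2% and 16.5% in the same order of groups, against 16.7% of all at this level, and it was in 20.3% of promoters whose 250 bases a BORIS-only peak overlapped. CCAAT, the letters recognised by NF-Y, was in 35.7% of promoters with a BORIS-only peak, 29.8% with a CTCF-shared peak and 39.1% with no BORIS peak. Over all promoters at this level it was in 36.1%. The E-box CACGTG was in 8.19% and the TATA box TATAAA in 4.54% of promoters with a BORIS-only peak, against 8.82% and 5.14% of all at this level. With no minimum level, promoters with a BORIS-only peak and with no BORIS peak were further apart: the GC box was in 69.5% and 47.8%, the ETS pattern in 17.2% and 8.58%, and the TATA box in 4.76% and 12.1%, against 56.4%, 11.4% and 9.28% of all promoters. Each pattern was searched on both strands. At 1 FPKM or more, median GC content was 64.8% for BORIS-only starts, 66.2% for CTCF-shared starts and 64.4% without a BORIS peak.

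**Figure D1:**
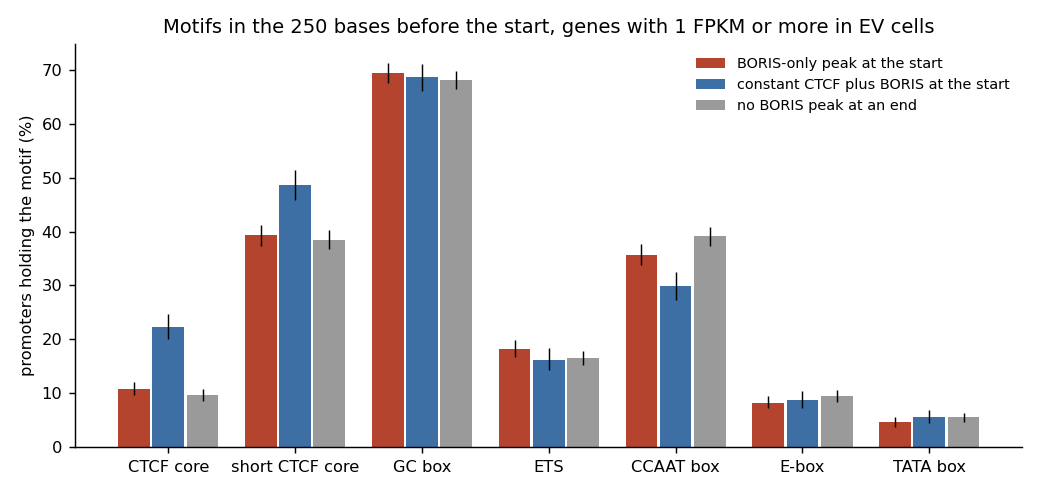
Share of promoters (%, vertical axis) that hold each letter pattern in the 250 bases before the start, for genes with at least 1 FPKM in EV cells and a BORIS-only peak alone at the start, a CTCF-shared (constant) peak alone at the start, or no BORIS peak at an end. Bars are shares and lines are 95% Wilson intervals; the CTCF core stands at 10.8% for BORIS-only peaks, 22.3% for CTCF-shared peaks and 9.62% without BORIS, while the GC box lies between 68.2% and 69.4%.

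BORIS without CTCF lay at gene ends far more often than BORIS with CTCF. Of the 7937 BORIS-only peaks, 57.9% had their centre within 1 kb of a gene end (56.8 to 59.0), against 22.8% of the 14545 CTCF-shared BORIS peaks (22.1 to 23.5). The contrast held in each of 10 near-equal parts of the BORIS list by score (score tiers). In the lowest tier 39.7% of BORIS-only peaks and 10.5% of CTCF-shared peaks lay at a gene end, and in the highest tier 76.5% and 40.2% did. The other 3339 BORIS-only peaks lay far from gene ends.

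Members were mostly weak peaks of the list. The score is the authors' own value per peak, with no stated unit. Members had a median score of 200 (quartiles 150 and 292, range 14 to 2057), against 165 for BORIS-only peaks far from gene ends and 461 for CTCF-shared peaks at gene ends. The highest tier held 62 members, 1.35% of them, and the lowest tier held 525. BORIS-only peaks made up 56.2% of the lowest tier and 3.43% of the highest. Members were wide, with a median of 527 bp (quartiles 362 and 790), against 385 bp for BORIS-only peaks far from gene ends and 536 bp for CTCF-shared peaks at gene ends. Of all members, 601 were over 1 kb wide, and together they covered 2.83 Mb.

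**Figure D2:**
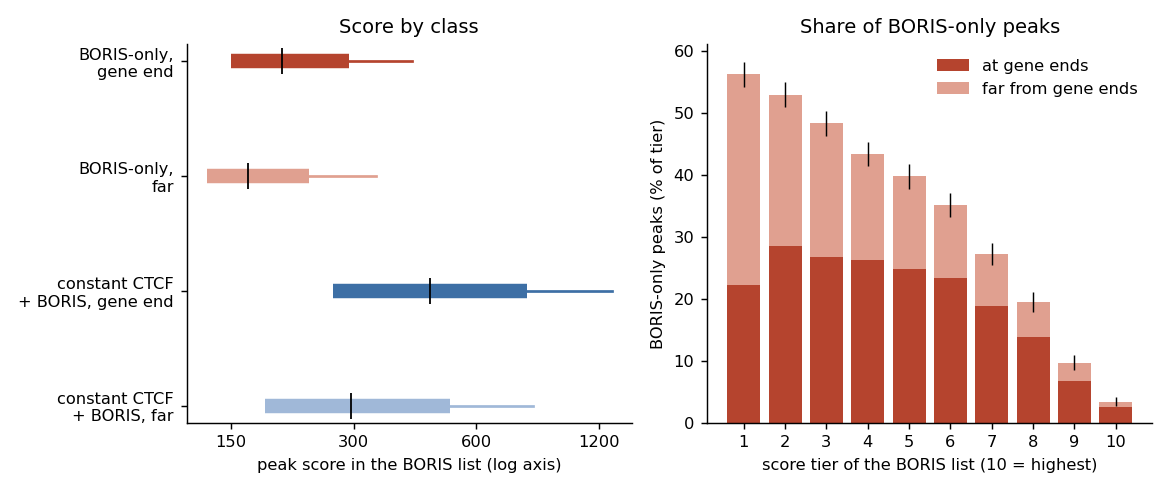
Left, peak score in the BORIS list (horizontal log axis) for BORIS-only and CTCF-shared (constant) peaks at and far from gene ends; bars run between the quartiles, black ticks mark medians and thin lines reach the 90th percentile. Right, BORIS-only peaks as a share (%) of each score tier of the list, split into those at gene ends and far from them, with 95% Wilson intervals on the sum; it stands at 56.2% in the lowest tier and 3.43% in the highest.

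Of the 12 highest-scoring members, 9 lay at the start of a gene with known strand and an unshared span. The highest score, 2057, belonged to a 764 bp peak at chr15:56535630-56536393 in hg19, 528 bp outside the start of RFX7, a winged-helix transcription factor. A score of 1604 was reached at chr11:64546193-64546592, at the start of SF1, which binds the branch point in splicing. The third was 1569 at chr7:76090916-76091531, at the shared span of DTX2, a ubiquitin ligase of the Notch pathway, and the pseudogene FDPSL2A. SELT, a selenoprotein of the endoplasmic reticulum, had 1267, ZNF354B, a KRAB zinc finger gene, 1250, and RPL7L1, a relative of ribosomal protein L7, 1221. The other 6 of the 12 highest lay at the span of TBC1D14 and TADA2B with a score of 1219, at TMEM132E and PRCC with 1188 each, at the T-box factor TBX2 with 1169, at the arginyltransferase ATE1 with 1165, and at the acyl-CoA thioesterase ACOT4 with 1151. All 12 were at least 1046 bp from a CTCF peak.

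Most of these genes had like RNA levels in both populations, and SF1 and ACOT4 were marked in the authors' deposited table, SF1 as lower and ACOT4 as higher in BORIS cells. RFX7 stood at 6.68 FPKM in BORIS cells and 7.67 FPKM in EV cells, SF1 at 23.8 FPKM in BORIS cells and 28.7 FPKM in EV cells, and SELT at 19.9 FPKM in BORIS cells and 17.9 FPKM in EV cells. ACOT4 had the highest log2 ratio among them, 0.50, with 3.52 FPKM in BORIS cells and 2.19 FPKM in EV cells. TBX2 and TMEM132E were under 0.1 FPKM in both.

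The widest members were single broad calls over a start. FBN1, the microfibril protein fibrillin, carried a peak of 2619 bp with a score of 365, AMD1, an enzyme of polyamine synthesis, one of 2605 bp with a score of 129, and the Wnt receptor FZD1 one of 2355 bp with a score of 590. At the edge of the rule, members at GALNT2 and KIAA0391 lay 999 bp and 999.5 bp from a gene end with scores of 279 and 67. Just outside, BORIS-only peaks at chr5:139780202-139780594 and chr13:96743976-96744210 lay 1000.5 bp away with scores of 285 and 196.

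Members lay about as far from CTCF peaks as the BORIS-only peaks far from gene ends. The median gap to the nearest CTCF peak of either population was 9800.5 bp (quartiles 1792 and 26632), against 8602 bp for those peaks. Over 10 kb from one lay 49.7% of members and 46.4% of BORIS-only peaks far from gene ends. A gap of 1 kb or less was found for 920 members (20.0%), against 16.1% of BORIS-only peaks far from gene ends. It was 100 bp or less for 77 members. The member at SOCS1, a feedback inhibitor of cytokine signalling, touched a CTCF peak without sharing a base. The member at the CNOT2 start, chr12:70636576-70637226, had one of the 2 largest gaps, 256958 bp. On the other side of the rule, 10 gene-end BORIS peaks shared under 50 bp with a CTCF peak, the smallest overlap being 1 bp.

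Nearly all members with a known strand sat at gene starts. Strand came from the RefSeq promoter table for 66.4% of the gene rows and 71.8% of those with a member. Of 3048 members at an unshared gene span over 2 kb with a strand, 2974 (97.6%, 97.0 to 98.1) lay at the start and 74 at a stop alone. The share at the start was 86.2% of 2063 CTCF-shared BORIS peaks (84.6 to 87.6), and 57.1% of 923 CTCF peaks of BORIS cells without BORIS (53.9 to 60.3). Other BORIS peaks came close to the members. Of 344 BORIS peaks that overlapped a CTCF peak in BORIS cells but not in EV cells, 95.1% lay at the start (92.2 to 96.9). Of 57 that overlapped a CTCF peak in EV cells but not in BORIS cells, 96.5% did (88.1 to 99.0). A high share at the start was thus not particular to BORIS-only peaks. The centre of 73.9% of the members at a start lay inside the gene, at a median of 334 bp past it, and 26.0% lay before it, at a median of 282 bp. Pairs of gene and member were most frequent from 100 to 200 bp past the start, with 359, and from 200 to 300 bp, with 355. CTCF-shared peaks were most frequent in the 100 bp before the start, with 216 pairs.

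**Figure D3:**
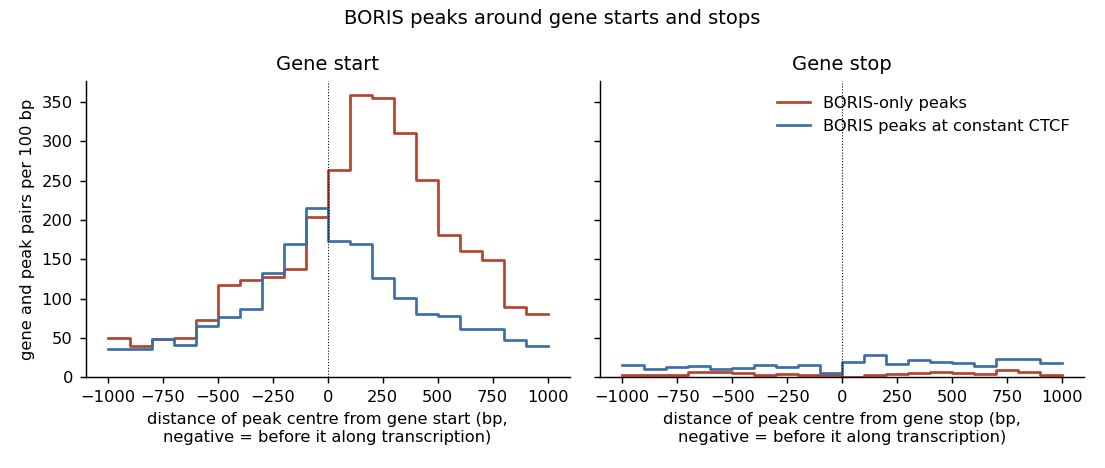
Pairs of gene and peak per 100 bp (vertical axis) by the distance of the peak centre from the gene start (left) and the gene stop (right), in bp along the direction of transcription, for BORIS-only and CTCF-shared (constant) peaks at unshared spans over 2 kb. BORIS-only pairs are most frequent 100 to 200 bp past the start (359), CTCF-shared pairs in the 100 bp before it (216), and BORIS-only pairs at stops reach 9 at most.

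A share of members lay where 2 genes start back to back. Of 3046 members at a start of known strand, 219 lay within 1 kb of 2 starts on opposite strands (7.19%, 6.33 to 8.16), against 76 of 1842 CTCF-shared peaks (4.13%, 3.31 to 5.13). Members at a stop were few and scattered. At HOXA3, a homeobox factor, the member at chr7:27145927-27146644 lay 477 bp inside the stop with a score of 460. In a histone cluster, the member at chr6:27775864-27776578, with a score of 1029, lay at the start of HIST1H2AI and was also counted for its neighbour HIST1H2BL.

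In all, 5416 of 22863 gene rows (23.7%, fixed by the rule) had a member, on 4523 spans. Rows on 1 span share their peaks, so genes here are not independent counts. A member counted for a gene on a shared span may lie at the end of a neighbour on that span. Most genes, 4614, had 1 member, 751 had 2 and 51 had at least 3. The highest number was 4, at the shared span of PDCD4 and BBIP1 and at that of SOLH and LINC00235. CTCF-shared BORIS peaks lay at an end of 837 of the 5416 genes as well.

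Genes with a member were mostly genes already transcribed without BORIS. In EV cells 81.0% of them reached 1 FPKM (79.9 to 82.0), against 67.8% of the 3312 genes with a CTCF-shared BORIS peak and no member and 37.1% of the 13645 genes with no BORIS peak at an end. Their median level was 9.43 FPKM in BORIS cells and 9.45 FPKM in EV cells. In bulk RNA, fewer transcribing cells and less RNA per cell cannot be told apart. Of genes under 0.1 FPKM in EV cells 6.98% had a member, of those from 1 to 3 FPKM 27.7%, from 3 to 10 FPKM 36.0%, and at 100 FPKM or more 41.1%. The share with a CTCF-shared peak was 8.75% under 0.1 FPKM, but from 1 FPKM upward it stayed between 22.9% and 26.0%. Among genes on a span of their own and outside the small RNA families, the member share was 4.17% under 0.1 FPKM and 43.5% at 100 FPKM or more.

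**Figure D4:**
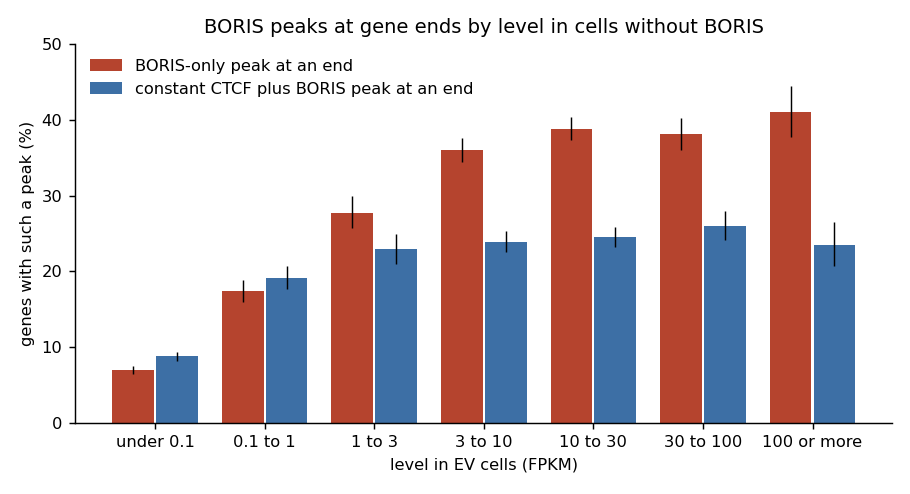
Share of genes (%, vertical axis) with a BORIS-only peak or a CTCF-shared (constant) BORIS peak at an end, by level in EV cells in FPKM (horizontal axis), with 95% Wilson intervals. The BORIS-only share is 6.98% under 0.1 FPKM and 41.1% at 100 FPKM or more, while the CTCF-shared share lies between 22.9% and 26.0% from 1 FPKM upward.

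The genes with the highest levels had ordinary members. LGALS1, the lectin galectin-1, stood at 3745 FPKM in BORIS cells and 3768 FPKM in EV cells, beside a peak scoring 183. The cytoskeletal actins ACTB and ACTG1 stood at 3522 and 2135 FPKM in BORIS cells and at 4358 and 2409 FPKM in EV cells, beside peaks scoring 157 and 260. RMRP and RPPH1, the RNA parts of the RNases MRP and P, had the highest FPKM of all, 91333 and 47112 in BORIS cells and 86503 and 43586 in EV cells.

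Gene groups differed in how often they had a member, set against 36.4% of all genes with at least 1 FPKM in EV cells. The groups were chosen with earlier results of these data known and carry no test. Histone cluster genes, whose short spans share peaks, had a member for 38 of 59 genes (64.4%, 51.7 to 75.4), and 37 separate members served 41 histone genes in all. Proteasome subunits, which form the protein-degrading complex, had one for 20 of 34 (58.8%, 42.2 to 73.6), among them PSMB5 with a score of 609 and PSMD4 with 406. Of the HOX genes 9 of 19 had a member (27.3 to 68.3), and of the extracellular matrix genes 11 of 24. Mitochondrial ribosomal proteins had one for 31 of 75 genes, cytosolic ribosomal proteins for 29 of 77 and ZNF genes for 147 of 400, which was 36.8%. DNA repair genes had one for 18 of 49, among them the checkpoint kinase CHEK2 with a score of 658.

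Other groups with at least 1 FPKM in EV cells had shares below 36.4%, with intervals that held it. CTCF and cohesin genes had a member for 3 of 14 (7.57% to 47.6%), the highest-scoring at the cohesin loader NIPBL with 1049 and at the cohesin release factor WAPAL with 437. Core splicing proteins had one for 12 of 40 (18.1% to 45.4%) and respiratory complex I subunits for 12 of 37 (19.6% to 48.5%). The next groups are given over all their genes, whether or not transcribed, against 23.7% of all gene rows. Of 379 olfactory receptor genes, 1 of them at 1 FPKM in EV cells, 0 had a member. Of 55 keratin genes, 11 of them at 1 FPKM, 1 had a member, KRT10. Of 107 cancer-testis antigen genes, the class to which BORIS itself belongs, 4 reached 1 FPKM and 1 had a member, the pseudogene CTAGE7P. Of 43 meiosis and germ cell genes 3 had one, REC8 and TEX14 among them, and of the 3 at 1 FPKM 1 did, REC8. KRT10, CTAGE7P and REC8 lie on shared spans, so their members may lie at the end of a neighbour. CTCFL had no member, and neither had GALNT14, a starter of O-glycan chains, which stood at 8.16 FPKM in BORIS cells and 0.141 FPKM in EV cells and had a CTCF-shared BORIS peak at an end. Within the GALNT family, 5 of 9 genes at 1 FPKM in EV cells had a member (26.7% to 81.1%). GALNT10, on a shared span, and GALNT7 had the highest-scoring members of the family.

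By chromosome, X had the lowest share. A member was found for 74 of 379 genes on X with at least 1 FPKM in EV cells (19.5%, 15.8 to 23.8), and for 28.0% of 825 on chromosome 19. Chromosome 18 had the highest share, 46.1% of 178 genes (38.9 to 53.4), next to chromosome 13 with 45.8% of 214, whose interval overlapped it.

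The RNA of genes with a member, like that of most genes tested, was nearly the same in both populations. The ratio used is log2((BORIS + 1)/(EV + 1)) in FPKM, for genes with at least 1 FPKM in either population, and it understates the change of low genes. Over 4462 genes with a member the median ratio was 0.0052, with quartiles at -0.09 and 0.09. Within 0.5 of 0 lay 96.1% of them, against 94.5% of all genes tested. The share was 92.2% with a CTCF-shared peak and no member, and 94.0% with no BORIS peak at an end. The median was -0.00023 over all 12344 genes, 0.04 over genes with a CTCF-shared peak and no member, and -0.02 over genes with no BORIS peak at an end. By peak strength, the median was -0.0013 for genes whose best member scored 14 to 170, 0.0017 for scores from 171 to 269 and 0.02 for scores from 270 to 2057.

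Few genes with a member passed 2-fold. Higher by 2-fold in BORIS cells were 47 (1.05%), against 1.43% of all genes tested, and lower were 20 (0.448%), against 0.924% of all. Both shares lay below the background. Most of these were small RNA or genes without a usable estimate: without them 10 of 4319 genes with a member were higher (0.232%), against 53 of 11863 genes in all (0.447%), and 3 were lower (0.0695%), against 18 in all (0.152%). In the authors' deposited table, 184 genes with a member were marked and higher in BORIS cells (4.12%), against 5.46% of all genes tested. In the authors' deposited table, 203 were marked and lower (4.55%), against 6.42% of all. In the authors' deposited table, marks of higher RNA stood at 11.7% of genes with a CTCF-shared peak alone and 3.50% of genes with no BORIS peak at an end, and marks of lower RNA at 4.41% and 9.17%. For higher marks, genes with a member, some with a CTCF-shared peak as well, thus lay between both groups. In the authors' deposited table, 3.48% of the 3761 with no CTCF-shared peak were marked higher, near the 3.50% with no BORIS peak. Of the 701 with both kinds of peak, 7.56% were marked higher in the authors' deposited table. Marks in either direction stood at 8.67% of genes with a member (7.88 to 9.54), 16.1% of genes with a CTCF-shared peak alone and 12.7% of genes with no BORIS peak at an end, all in the authors' deposited table. By level, from 3 to 10 FPKM in EV cells, the authors' deposited table marked 9.08% of genes with a member (7.62 to 10.8), 20.5% with a CTCF-shared peak alone (17.6 to 23.8) and 14.9% with no BORIS peak (13.2 to 16.8). In the same order of groups, the authors' deposited table marked 17.9%, 27.9% and 21.6% from 1 to 3 FPKM, 6.27%, 8.37% and 8.90% from 10 to 30 FPKM, 5.77%, 10.8% and 6.03% from 30 to 100 FPKM, and 5.09%, 6.38% and 8.41% at 100 FPKM or more. Genes with a member had the lowest share in each of the 5 bands, with intervals that overlapped one or both of the others in all bands but that from 3 to 10 FPKM, while the order of the other groups varied.

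**Figure D5:**
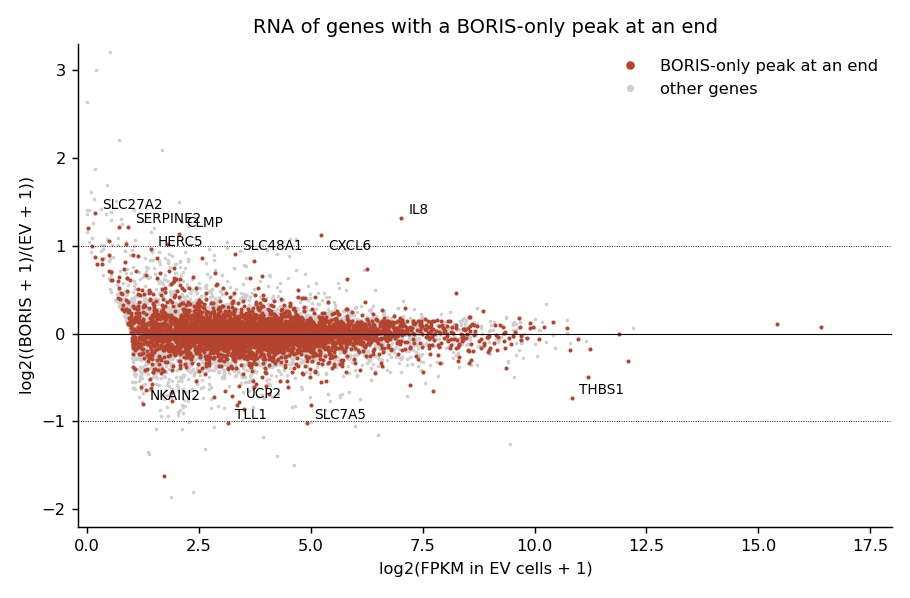
Ratio log2((BORIS + 1)/(EV + 1)) (vertical axis) against log2(FPKM in EV cells + 1) (horizontal axis) for genes outside the small RNA families with at least 1 FPKM in either population; red points are 4319 genes with a BORIS-only peak at an end, grey points are 7552 other genes, and 3 other genes lie outside the plotted range. Dotted lines mark a 2-fold difference; most red points lie near 0, with IL8 and CXCL6 above the upper line and TLL1 and SLC7A5 at the lower one.

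The genes named next had a usable estimate and no small RNA, antisense or read-through name. The 12 of them with the highest ratio included a pair of chemokines. IL8, a neutrophil-attracting chemokine, stood at 322 FPKM in BORIS cells and 129 FPKM in EV cells, and CXCL6, of like function, at 80.7 FPKM in BORIS cells and 36.6 FPKM in EV cells. Their members were unlike in strength: the peak at chr4:74606275-74606561 at IL8 scored 74, in the lowest tier, and that at chr4:74702282-74702967 at CXCL6 scored 292. SLC27A2, a fatty acid transport protein, had the highest ratio, 1.37, with 1.90 FPKM in BORIS cells and 0.119 FPKM in EV cells. The protease inhibitor SERPINE2 stood at 3.38 FPKM in BORIS cells and 0.888 FPKM in EV cells, and the adhesion protein CLMP at 8.03 FPKM in BORIS cells and 3.12 FPKM in EV cells. SFRP5, a secreted Wnt antagonist, stood at 1.32 FPKM in BORIS cells and 0.0110 FPKM in EV cells but was not marked in the authors' deposited table. Ratios of the others, FAM201A, DNER, FAM70B, ZNF114, HERC5 and SLC48A1, lay between 0.91 and 1.22. SLC48A1 lies on a span shared with another gene row, so its member may lie at the end of a neighbour.

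Some of these genes had CTCF close by. A CTCF-shared BORIS peak lay at an end of 5 of the 12 as well, against 2 of the 12 genes with the lowest ratio and 837 of all 5416. The member lay within 1 kb of a CTCF peak at 6 of the 12 highest and 5 of the 12 lowest genes, against 20.0% of all members. The member at HERC5, a ligase for ISG15, lay 12 bp from one, and that at SLC27A2 199 bp from one. The IL8 member lay 10505 bp and the CXCL6 member 27106 bp from any. Which peak, if any, goes with the RNA was not tested.

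The 12 genes with the lowest ratio, chosen the same way, lay between -1.01 and -0.69. TLL1, a secreted tolloid-like metalloprotease, stood at 3.38 FPKM in BORIS cells and 7.86 FPKM in EV cells, and its member at chr4:166794473-166795637 scored 333 and lay 172162 bp from a CTCF peak. SLC7A5, a carrier of large neutral amino acids, stood at 13.9 FPKM in BORIS cells and 29.0 FPKM in EV cells. THBS1, the matricellular protein thrombospondin-1, stood at 1098 FPKM in BORIS cells and 1825 FPKM in EV cells and had a CTCF-shared BORIS peak as well. A pair of sialyltransferases was among them, ST6GALNAC5 with 5.26 FPKM in BORIS cells and 10.4 FPKM in EV cells and ST6GALNAC3 with 4.78 FPKM in BORIS cells and 8.42 FPKM in EV cells. FST, which binds activin, stood at 1.18 FPKM in BORIS cells and 2.73 FPKM in EV cells, and the desmosomal protein DSP at 9.36 FPKM in BORIS cells and 15.7 FPKM in EV cells. UCP2, a carrier of the inner mitochondrial membrane, stood at 5.12 FPKM in BORIS cells and 9.48 FPKM in EV cells. The other 4 were HIST1H4I, GDF6, NKAIN2 and PLSCR3. HIST1H4I and PLSCR3 lie on shared spans, so their members may lie at the end of a neighbour. Peak scores were 74 to 348 at the 12 highest genes, with a median of 202.5, and 95 to 333 at the 12 lowest, with a median of 168.5.

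Within the fixed groups, genes with a member mostly had small ratios, as did most genes tested. Over the 20 expressed proteasome genes with a member the median ratio was 0.07, and 0 of them passed 2-fold in either direction. Of all genes tested, 1.43% were higher and 0.924% lower by 2-fold, so few would be looked for in so small a group. PSMB5, a catalytic subunit, stood at 183 FPKM in BORIS cells and 175 FPKM in EV cells. The median was 0.06 over 31 mitochondrial ribosomal genes, -0.11 over 38 histone genes and -0.12 over 11 extracellular matrix genes, 5 of which were marked lower and 1 higher in the authors' deposited table, against 6.42% and 5.46% of all genes tested. The acetyltransferase EP300 stood at 8.48 FPKM in BORIS cells and 9.43 FPKM in EV cells, and NIPBL at 14.6 FPKM in BORIS cells and 15.2 FPKM in EV cells. IL8 and CXCL6 were the only genes of the 21 groups with a member that passed 2-fold, among 10 expressed cytokine and NF-kB genes with a member.

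Genes under 0.5 FPKM in EV cells and at 1 FPKM or more in BORIS cells numbered 36 among the 5416 with a member (0.665%), against 0.625% of all 22863 gene rows. Of these, 23 were small RNA genes listed at 0 in EV cells, where few reads can give a high FPKM. The 13 others included SLC27A2, SFRP5 and ZNF114, the kinase subunit PHKA1 with 1.19 FPKM in BORIS cells and 0.262 FPKM in EV cells, PCOLCE2, an enhancer of procollagen processing, with 1.26 FPKM in BORIS cells and 0.251 FPKM in EV cells, and the protocadherin PCDH10 with 1.59 FPKM in BORIS cells and 0.396 FPKM in EV cells. All stayed under 2 FPKM in BORIS cells.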

How the data were processed

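CTCF peaks in BORIS and EV cells, BORIS peaks in BORIS cells and RNA of both populations were analysed, with 1 sample per group. The build was hg19 and the tools were Cufflinks 2.0.0, TopHat2 and Bowtie, per the submitters' processing notes, which give no role for each. The deposited expression table holds the authors' FPKM values with their p-value, q-value and mark of significance per gene, and only the marks are printed. The authors' peak lists hold a score and a position per peak, and the peak caller, its threshold and any use of the input are not given in the sources used here. Read depth is unknown, so no interval that needs it is given, and whether an FPKM value pools cultures is not given either.

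Classes were set by overlap of at least 1 bp and gene ends by a distance of 1 kb from the peak centre. Peak coordinates are 1-based. Of 23278 gene rows, 22863 lay on the chromosomes of the peak lists and kept a usable name, and 5809 of these shared a span. Shares carry 95% Wilson intervals. Ratios used a pseudocount of 1 FPKM and a minimum of 1 FPKM, and a ratio of 1 in size was called 2-fold. Strand and promoter sequence came from RefSeq (GRCh38.p14), without chromosome 8, using the outermost start. The code was tested on simulated peaks and run in Python 3.11.15 with pandas 2.3.3, numpy 2.4.6, scipy 1.17.1 and matplotlib 3.10.9.

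Named genes were GALNT14 and CTCFL, genes at the 12 highest-scoring members, the 12 highest and 12 lowest ratios and the 5 highest FPKM among genes with a member, an official symbol and a usable estimate outside small RNA, antisense and read-through names, the 2 members of each list with the strongest peak, and genes under 0.5 FPKM in EV cells and at 1 FPKM or more in BORIS cells. Regions with the smallest and largest gap to CTCF were chosen after their values were seen. Members, lists and rules were chosen with earlier results of these data known.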

Additional observations from a re-analysis of the deposited data

How the results depend on the processing

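Of 70 alternatives to the main results, 54 stayed within 1.5 times the count or within the 95% interval of the share or median. At 500 bp from a gene end, 41.3% of BORIS-only peaks were members, the median score of CTCF-shared gene-end peaks was 485 and 98.5% of members were at a start. At 2 kb, 65.6% were members and that median score was 437. In the upper part of the BORIS list from the median score, 1562 members remained as 68.9% of BORIS-only peaks, and the median ratio was 0.014. The authors' deposited table then marked 75 genes higher and 71 lower, with fewer genes tested. No share of the genes tested was taken for this setting, so these counts cannot be set against the 5.46% and 6.42% of all genes. With spans held by 1 row alone, the median EV level was 10.6 FPKM, and 11 genes were higher and 3 lower by 2-fold. With usable estimates and no small RNA, the median EV level was 11.9 FPKM, and 10 genes were higher and 3 lower. The cause was not tested, other than the fewer peaks or genes these settings hold. Of the 24 genes named by ratio, 0 changed sign under pseudocounts of 0.1 and 0.5 or centred ratios, and 4 more passed 2-fold with 0.1 and 3 more with 0.5. The share of members at a start, promoters under overlapping peaks and the count without chromosome X (4519 members) were added after seeing the data. No paired analysis was possible because each group held 1 sample.

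The score has no stated unit, CTCF calls at a threshold not given decide membership, and a weak CTCF signal below that threshold would not be seen. Gene spans join several transcripts, so an inner start is not counted as an end.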
